A study of Caenorhabditis elegans with 4 samples.

Results

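Chromosome III of Caenorhabditis elegans carried 1358 of the 7283 regions that the authors' series-level list gives for REC-8 by chromatin immunoprecipitation and sequencing (ChIP-seq). They were taken by chromosome alone, as every row of that list placed on III, whatever its score. The animals were hermaphrodites at the adult stage, from the strain fem-2(b245), whose mutation lies on chromosome III itself (genotype fem-2(b245)III). They were kept at 20 °C, and the labels describe them as young adults with a germline, although the protocol for growth had gravid adults collected. The group immunoprecipitated with a rabbit polyclonal antibody against REC-8 and the group of input DNA held 2 libraries each. All 4 libraries carried the fem-2 mutation, so nothing here compares it with a wild type. Each REC-8 library had a peak list of its own, with 490 peaks on III in replicate 1 and 671 in replicate 2. The labels do not say whether the replicates came from separate cultures. Their read depth is unknown, and the intervals given below cover counting error only. Positions are in the WormBase build WS220.

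Cohesin is a protein ring that holds sister chromatids together, and its kleisin subunit bridges the heads of its SMC subunits. In meiosis specialised kleisins, REC-8 among them in the worm, take the place of the mitotic one and help to build the chromosome axis on which homologues pair and recombine. The worm's chromosomes are holocentric, with no single centromere, and on the autosomes a gene-rich centre lies between arms that carry most crossovers. fem-2 encodes a protein phosphatase that promotes male development, sperm formation in hermaphrodites included. Whole adults were used, so a region stands for an average over all cells in the extract, and fewer cells with REC-8 at a site cannot be told apart from less REC-8 per cell.

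REC-8 regions were packed most tightly on III, but the strongest ones were not concentrated there. III was known to be the densest chromosome before these measures were made, so its rank in density is a description and no finding. III is the shortest of the 6 nuclear chromosomes, with its last peak ending at base 13783553, and held 98.5 regions per Mb. The other chromosomes ranged from 53.2 on V to 90.2 on I. The regions covered 533 kb or 3.87% of III, against 2.37% of V and 3.61% of I at the ends of the others' range. III took up 13.8% of the nuclear length and held 18.7% of the 7280 nuclear regions. It held 18.2% of the upper 50% of them by score, 18.02% of the upper 25%, 16.1% of the upper 10% and 5.48% of the upper 1%. The score is the authors' value for each peak, its scale is not stated, and higher is read as stronger. Each chromosome occurs once in the data and its regions are not replicates, so none of these differences between chromosomes was tested.

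III no longer had the highest density in the upper 10% of scores, from 42.4 upwards. In the upper 50% (7.86 upwards) III had 48.2 regions per Mb (95% interval 44.6 to 52.1) against 47.5 on I. In the upper 25% (16.9 upwards) III had 23.8 against 23.6 on I. III was the densest in both, by leads smaller than counting error. In the upper 10% it had 117 regions or 8.49 per Mb (95% interval 7.02 to 10.2), and I and IV had 8.89 and 8.86. Both values lie within that interval, so this change of order is within counting error. In the upper 1%, from 145 upwards, III had 4 of 73 regions or 0.290 per Mb, the lowest density of the 6, and X had 21 or 1.19 per Mb. II had 7 and I had 8. Their shares of 0.636% and 0.589% lay within the interval for III (0.115 to 0.755%), so III was not set apart from them. Of the regions on III, 8.62% reached the upper 10% (95% Wilson interval 7.24 to 10.2%), and over all nuclear regions that share is 10.0% by construction. IV had 12.4% (interval 10.7 to 14.4%), and V, with 8.65%, did not differ from III beyond counting error.

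**Figure D1:**
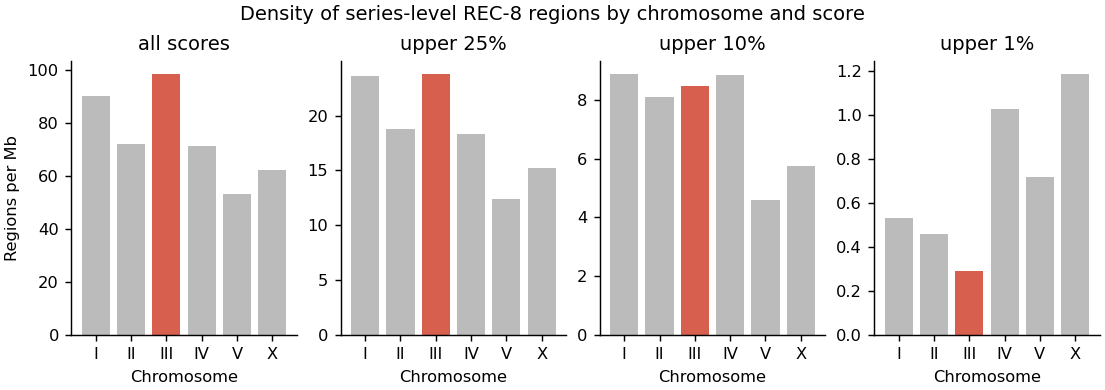
Bars give the series-level REC-8 regions per Mb (vertical axes, each from 0) on each nuclear chromosome, for all scores and for the upper 25%, 10% and 1% of scores over all nuclear regions, with III in red. III is highest over all scores (98.5), near I and IV in the upper 10% (8.49) and lowest in the upper 1% (0.290).

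In the list of each replicate, too, III held a smaller share of the strong peaks than of all peaks. In replicate 1, III had the most peaks per Mb (35.5) but the fewest in the upper 10% of that list by score, 25 of 267 or 1.81 per Mb. These were 5.10% of its 490 peaks (interval 3.48 to 7.42%), while the other chromosomes had 7.31% (I) to 15.2% (X) and the list as a whole 10.0%. In replicate 2 the upper 10% held 49 peaks from III out of 367, or 7.30% of its 671 peaks (interval 5.57 to 9.52%). The others ranged from 8.23% (V) to 13.5% (IV), again with 10.0% over the list. III thus had the lowest share in all 3 lists, which are not independent of each other, since the series-level one comes from the same pair of libraries. In each list the chromosome with the next lowest share (V, I and V) lay within the interval for III.

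Scores on III ran from 1.32 to 193.65 with a median of 7.64 (quartiles 4.45 and 16.0), so most regions were weak and a few were strong. The medians of the other chromosomes were 7.61 on V to 8.28 on I. The 90th percentile was 37.99 on III, below the range of the others, which went from 38.2 on V to 50.6 on IV. Thus the middle of the distribution on III lay within that of the other chromosomes, and its upper end was a little lower.

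Support by the replicates was read as an overlap of at least 1 bp with a replicate peak. On III, 393 regions were found in both replicates (28.9%, Wilson interval 26.6 to 31.4%), and over all nuclear regions the share was 29.1%. A further 105 (7.73%) were found in replicate 1 only and 260 (19.1%) in replicate 2 only. At least 1 replicate held 758 of them, or 55.8%, against 55.4% of all nuclear regions. The remaining 600 (44.2%) overlapped no peak of either replicate. The lowest replicate peaks on III scored 50.24 and 50.06, and the series-level scores ran down to 1.32. The callers differed too, MACS for the replicates and MACS v2 for the series-level list. The score scales are not stated, so the lists may be cut at unlike thresholds. Absence from a replicate list thus does not show that the replicate had no signal. These shares are near the background, so support by the replicates did not set III apart.

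Regions found in both replicates had higher scores and were wider. Their median score was 26.33 (quartiles 16.6 and 46.0), against 8.07 for those found in replicate 1 only, 9.03 for replicate 2 only and 4.68 (quartiles 3.40 and 6.47) for neither. Median widths were 506, 375, 300.5 and 212 bp in the same order. The 393 regions made up 47.5% of the bases covered on III and 68.2% of the summed score, and the 600 unsupported ones 26.9% and 15.3%. The share found in both went from 2.94% in the lowest score quartile (up to 4.45) to 5.01%, 20.1% and 87.6% in the next ones, the highest of which began at 16.03. All 136 regions in the upper 10% of scores on III, from 38.15 upwards, were found in both replicates (interval 97.3 to 100%). The series-level scores and the replicate lists come from the same pair of libraries. A high score and presence in both lists are therefore not independent, and this is no separate support. Support by score is given for III only.

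**Figure D2:**
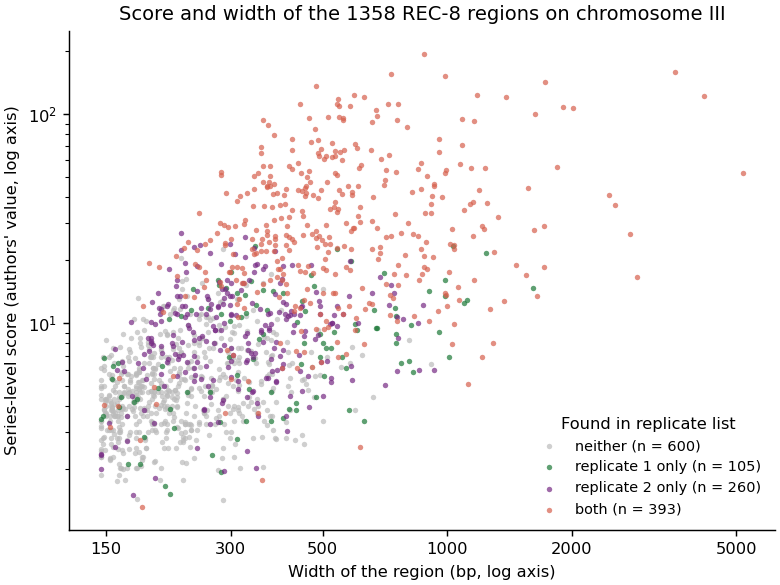
Each point is 1 of the 1358 regions on III, placed by its width in bp and its series-level score (both log axes) and coloured by the replicate lists in which it was found. The 393 regions found in both (red) take up the upper right, and the 600 found in neither (grey) lie mostly at the narrow, low-scoring end.

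Wider regions tended to score higher, with a Spearman's rho of 0.637 across the 1358 regions, which share their libraries and are not independent. The other nuclear chromosomes had rho values from 0.632 (V) to 0.672 (I), so this relation was not particular to III. The median width was 297.5 bp (quartiles 205 and 451), and the narrowest regions were 146 bp, as on every chromosome. The 311 regions under 200 bp had a median score of 4.22, and 10 of them (3.22%) were found in both replicates. Between 500 and 1000 bp there were 218 regions with a median score of 18.8, of which 148 (67.9%) were found in both. At 1000 bp or more there were 59, or 4.34% of III, and the other chromosomes had 4.12% (I) to 7.57% (V). Of these 59, 53 were found in both replicates (89.8%, interval 79.5 to 95.3%) and 0 in neither, which allows a share of up to 5.08% (3 counts of 59). Support by width is given for III only, so it does not set III apart. A wide region also has more bases with which to meet the 1 bp overlap.

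The strongest region of III, near its right end at 13447892 to 13448772 (881 bp), scored 193.65, the second-highest score of all nuclear regions. It scored 3100 in replicate 1 and 3100 in replicate 2, the value at which the strongest peaks of both lists are tied. The next on III was 424504 to 428054 near the left end, 3551 bp wide, with a series-level score of 157.84, 3100 in replicate 1 and 2038.04 in replicate 2. The region 6971804 to 6972535 scored 154.9, with 1150.78 in replicate 1 and 1476.4 in replicate 2. The region 8335305 to 8336291 scored 152.38 and 3100 in each replicate. These 4 were the regions of III in the upper 1%, and each scored at least as high as 91.4% of the peaks of either replicate.

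The other regions among the 10 highest on III scored from 120.41 to 142.58. A pair of them lay less than 5 kb apart in the centre, 8440681 to 8442408 (score 142.58, 2363.08 in replicate 1 and 1703.32 in replicate 2) and 8446370 to 8447551 (score 123.03, 1389.67 and 1048.29). Near the right end lay 13643393 to 13643875 (135.3) and 13462621 to 13463249 (120.41), and in the left part 1080462 to 1081058 (122.88) and 3863607 to 3867785 (122.14). All 10 were found in both replicates. They spread over III, with 3 in the left of 3 equal parts, 4 in the centre and 3 in the right.

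The widest regions of III had moderate to high scores. The widest, 5939080 to 5944254 (5175 bp), had a series-level score of 52.01, the 85th highest on III, although it was at the tied score of 3100 in both replicates. The next were 3863607 to 3867785 (4179 bp) and 424504 to 428054 (3551 bp), which are also among the 10 highest. The region 5502500 to 5505379 (2880 bp) scored 16.57, with 1262.39 in replicate 1 and 400.07 in replicate 2. The region 10715674 to 10718437 (2764 bp) scored 26.62, with 1023.13 and 388.95. Both of these had the lower score in replicate 2. The widest region on III was narrower than the widest of any other nuclear chromosome, which measured from 6102 bp on IV to 11373 bp on II.

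Along the chromosome, REC-8 regions were fewest toward the left end. The left of 3 equal parts held 391 regions (85.1 per Mb), the centre 510 (111.0) and the right part 457 (99.5). Density in the centre was 1.20 times that of the outer parts together (exact 95% interval 1.08 to 1.34, from the share of regions in the centre). Replicate 1 on its own gave a ratio of 1.16, with an interval of 0.961 to 1.40 that includes 1, and replicate 2 gave 1.49 (1.28 to 1.75). These intervals treat regions and peaks as independent, although many lie in clusters, so they may be too narrow and are no test. Among the other chromosomes the series-level ratio ran from 0.868 on X to 1.43 on V. Scores and widths hardly changed between the parts: median scores were 6.98, 8.04 and 7.64 and median widths 290, 301 and 296 bp from left to right.

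The replicates differed in where their peaks were added. Replicate 2 had 1.17 times as many peaks as replicate 1 in the left part (165 and 141), 1.59 times in the centre (287 and 180) and 1.30 times in the right part (219 and 169). On every other nuclear chromosome, too, the ratio of centre to outer density was higher in replicate 2 than in replicate 1. The ratios in replicates 1 and 2 were lowest on X (0.801 and 0.901) and highest on V (1.31 and 1.70). A surplus of replicate 2 peaks in the centre was thus not particular to III. Regions found in replicate 2 only made up 25.1% of those in the centre (interval 21.5 to 29.0%), 14.1% on the left (11.0 to 17.9%) and 16.8% on the right (13.7 to 20.6%). Regions found in replicate 1 only were 12.02% on the left (9.16 to 15.6%), 6.27% in the centre and 5.69% on the right. The share found in both was 27.9%, 29.6% and 29.1% from left to right, with overlapping intervals. With 1 library a replicate, whether depth or the extract moved with this difference was not tested.

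**Figure D3:**
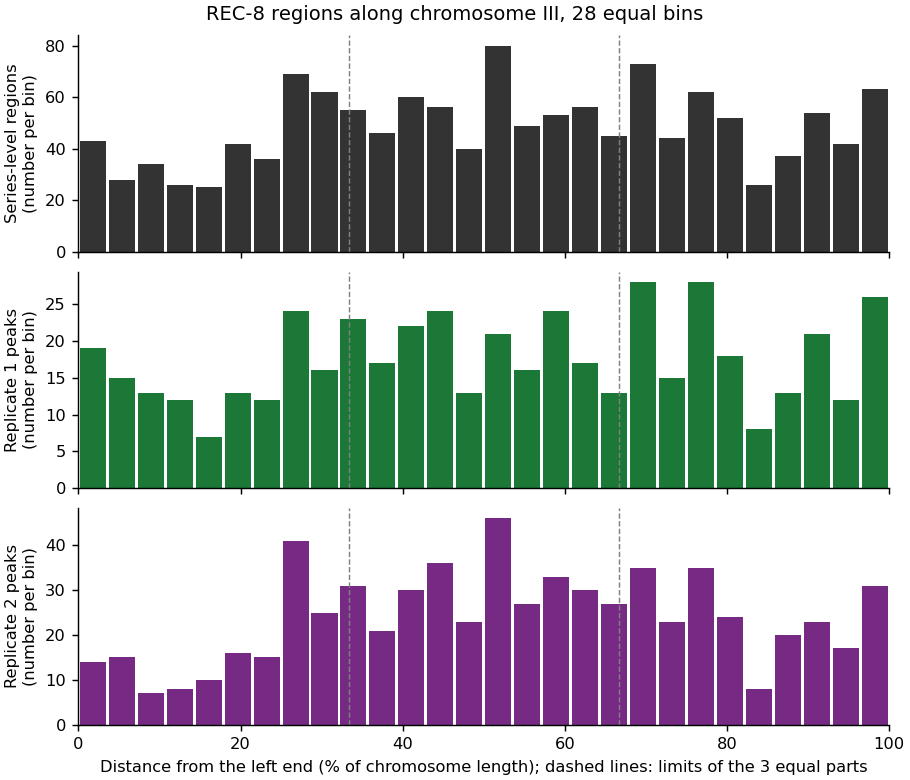
Bars count series-level regions (top), replicate 1 peaks (middle) and replicate 2 peaks (bottom) in 28 equal bins of III, plotted against the distance from the left end in percent of its length. The series-level bins hold 25 to 80 regions, and the leftmost 7 bins hold 234 of the 1358.

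In 28 equal bins of about 492 kb, the number of regions ranged from 25 to 80 with a median of 47.5. The densest bin, 6891777 to 7384046 near the middle, held 80 regions with a median gap of 2312 bp, 21 peaks of replicate 1 and 46 of replicate 2. It also contained the third-highest region of III. Of its 80 regions, 19 (23.8%, interval 15.8 to 34.1%) were found in both replicates, which does not differ from the 28.9% over III beyond counting error. The sparsest bin, 1969080 to 2461348, held 25 regions, 7 peaks of replicate 1 and 10 of replicate 2, and none of its regions scored above 26.9. Of the 25, 5 (20.0%, interval 8.86 to 39.1%) were found in both replicates. The leftmost 7 bins, up to base 3445888, together held 67.9 regions per Mb and the other 21 bins 108.7, a division made after the counts were seen. Another low point on the right arm, 11322205 to 11814474, held 26 regions and 8 peaks in each replicate. Across the 28 bins the peak counts of both replicates rose and fell together (Spearman's rho 0.824, Pearson's r 0.796, given as a description). Replicate 2 had more peaks than replicate 1 in 23 bins, as many in 2 and fewer in 3, and these 3 were within the leftmost 4 bins.

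The longer gaps between REC-8 regions were shorter on III than on the other nuclear chromosomes. Shorter gaps go with more regions per Mb, so they are no result apart from the density. The median distance from the end of a region to the start of the next was 3487 bp (quartiles 738 and 12488), and the other chromosomes had medians of 3810.5 (I) to 5578 bp (X). The lower quartile lay within the range of the other chromosomes, 639 (V) to 822 bp (I). The upper quartile was below their range of 14104 (I) to 24040 bp (V), and so was the 90th percentile, 26809 bp against 28452 (I) to 52605 bp (V). A neighbour lay within 1 kb for 632 regions of III (46.5%, interval 43.9 to 49.2%), close to IV with 46.9%, and within 5 kb for 1051 (77.4%, interval 75.1 to 79.5%), close to I with 76.8%. The peaks of the replicates were further apart, with median gaps of 15126 bp in replicate 1 and 8188 bp in replicate 2.

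**Figure D4:**
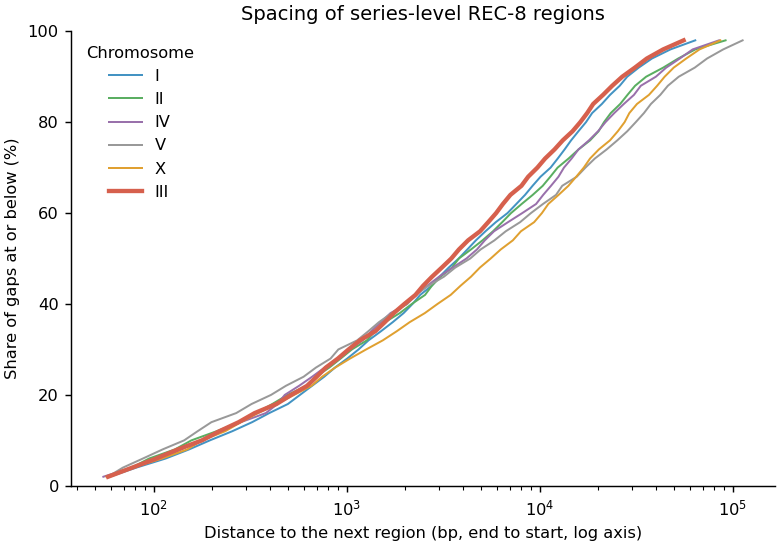
Each line gives, for 1 nuclear chromosome, the share of gaps between neighbouring series-level regions (vertical axis, %) that are at or below a length (horizontal axis, bp, log scale). III (thick red) runs among the other chromosomes up to about 1 kb and lies left of them at its upper quartile of 12488 bp.

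The 3 longest stretches without a series-level region all lay in the right part of III. The longest, 9269339 to 9390545 (121207 bp), contained 0 whole peaks of either replicate, and the replicate 2 peak of the region on its left (98.5) ran into it. The stretch 12058642 to 12172838 (114197 bp) contained 1 peak of each replicate, and 12714087 to 12816005 (101919 bp) contained 0 of either. On the other chromosomes the longest gap was 165640 bp (X) to 304293 bp (V). Gaps of over 20 kb were 210 of the 1357 on III (15.5%) and together made up 58.2% of its length.

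At the other end, 400 gaps (29.5%) were under 1 kb and gathered the regions into 958 groups, of which 728 were single regions, 143 were pairs and 87 held 3 or more. The largest group, 321872 to 332813 on the left arm, had 16 regions over 10942 bp, with scores from 2.49 to 8.74. Replicate 1 had 6 peaks over it, scoring 56.13 to 114.4, and replicate 2 had 0, so 7 regions were found in replicate 1 only and 9 in neither. The next, 2497130 to 2502769, had 10 regions over 5640 bp, all found in both replicates. Replicate 1 had a single peak over them, 2496965 to 2503153, which at 6189 bp was its widest on III and scored 2706.13. Replicate 2 had a peak of 4889 bp over 9 of them, with a score of 204.67, and another over the last, with 653.71. The last region scored 63.38 in the series-level list and the median of the 10 was 5.195. The lowest score of any region on III, 1.32, belonged to the first of them, 2497130 to 2497312. These runs were singled out after the values were seen, and whether repeated sequence lies there was not tested.

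Scores of both replicates rose together over the 393 regions found in both. Ranks had a Spearman's rho of 0.667 and values a Pearson's r of 0.664, descriptions across regions of a single pair of libraries. Without the 10 regions of the run at 2497130 to 2502769, rho was 0.696 and r 0.844. Without the 9 regions at the tied score of 3100 in at least 1 replicate, rho was 0.657 and r 0.447 (n = 384), and without both sets rho was 0.689 and r 0.745 (n = 374). The value of r thus rests on a few regions, while rho moved little. The other nuclear chromosomes had rho values from 0.652 (X) to 0.716 (II), a range that contains III. The replicate scores were within 2-fold of each other for 269 of the 393 regions (68.4%). Replicate 2 had the higher score for 224, replicate 1 for 163, and 6 were at the tied score of 3100 in both.

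**Figure D5:**
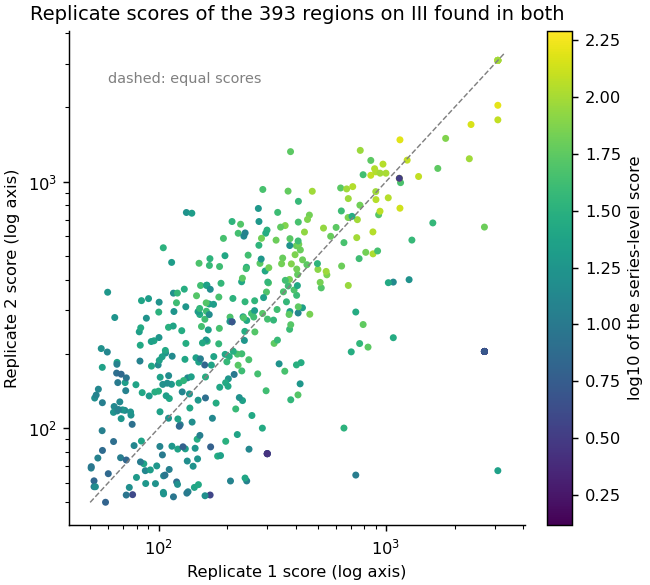
Each point is a region of III found in both replicates (n = 393), placed by its replicate 1 and replicate 2 scores (log axes) and coloured by the log10 of its series-level score, and the dashed line marks equal scores. The points scatter around the line (269 within 2-fold), and a dark point at 2706.13 and 204.67 stands for the 9 regions of 1 run.

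The 6 regions tied in both replicates were not the 6 highest in the series-level list. The strongest region (193.65), 8335305 to 8336291 (152.38) and the widest region (52.01), all described above, were among them. A further region, 13753521 to 13754679 (92.66), lay close to the right end. The others, 3894865 to 3896879 (106.43) and 3896969 to 3897583 (30.55), are neighbours separated by a gap of less than 200 bp. The largest disagreement between replicates was at 13446786 to 13447825, next to the strongest region of III, where replicate 1 scored 3100 and replicate 2 scored 67.23. The replicate 1 peak there also spans the strongest region, which replicate 2 holds as a peak of its own.

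Some regions of III stood out against the relation of score and support. The highest-scoring regions found in neither replicate were 12351238 to 12351525 (22.71), 11110722 to 11110949 (20.4) and 9847967 to 9848342 (17.09), all in the right part. They were 228 to 376 bp wide, against a median of 212 bp for all regions found in neither and 297.5 bp over III. The lowest-scoring regions found in both were 2497130 to 2497312 (1.32) and 2499434 to 2499791 (1.77), in the run described above, and 3334966 to 3335581 (2.55), which lay with 3 other regions under a replicate 1 peak of 300.39 and a replicate 2 peak of 78.79.

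Nearly all replicate peaks on III had a series-level region, 479 of 490 in replicate 1 (97.8%, interval 96.0 to 98.7%) and 654 of 671 in replicate 2 (97.5%, interval 96.0 to 98.4%). These shares are given for III only, so they do not set III apart. The strongest exception in each was at the left tip of the chromosome, bases 1 to 199 in replicate 1 (score 178.42) and 1 to 205 in replicate 2 (313.34), whereas the first series-level region on III began at base 25625. Replicate 1 also had 10226008 to 10227788 (177.4) and 7594553 to 7597283 (153.44), which were wide and had no peak in replicate 2. Replicate 2 also had 12143786 to 12143978 (215.7), where replicate 1 scored 140.82, and 3389301 to 3389716 (96.44), which had no peak in replicate 1. The sites at the left tip and at 12143786 were thus in both replicate lists and not in the series-level list. Over all 11 and 17 peaks without a region, those named here included, the median scores were 66.0 and 70.7. Over all peaks of replicates 1 and 2 on III they were 160.3 and 146.5.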

How the data were processed

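REC-8 ChIP peaks on chromosome III were analysed as the authors deposited them, each with a score whose scale is not stated. Reads were handled with BWA and the build ce10, per the submitters' processing notes, and coordinates are in WormBase WS220 and the callers MACS (replicates) and MACS v2 (series-level), per the file headers and source columns. Caller settings, the use of input and any pooling have no source here. Unknown depth can change how many weak peaks a list holds.

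Chromosome III was taken to end where its last peak ended. Overlap needed 1 bp. A region took the highest score of its replicate peaks. Regions were assigned to parts and bins by midpoint. Wilson or exact intervals (95%) cover counting error and treat regions as independent, although many lie in clusters. No test was made: each replicate has 1 list, and regions are not replicates. Regions were named by a rule: the 10 highest scores, 5 widest, 3 longest gaps, extreme bins, and 3 exceptions of each kind to support. The run positions, upper 10% of the lists, replicate disagreements and tied regions were singled out after their values were seen. The members and measures were chosen with earlier results of these data known. Without an annotation or genome of WS220, genes and sequences are not reported. The measures were tested on simulated lists. Python 3.11.15, numpy 2.4.6, scipy 1.17.1, pandas 2.3.3 and matplotlib 3.10.9 were used.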

Additional observations from a re-analysis of the deposited data

How the results depend on the processing

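Of 27 alternatives to 8 results, 10 stayed within counting error (for the bin ratio, within 1.5 times), 17 moved the value, and the ratio of centre to outer density stayed above 1. The share of regions found in both replicates was 55.0% for the upper 50% of scores and 14.5% with the upper 50% of replicate peaks, and support by a single replicate ranged from 36.7% to 48.1%. Density was 48.2 per Mb for the upper 50% of scores and 23.8 for the upper 25%, where I had 47.5 and 23.6. It was 8.49 for the upper 10% (added after the values were seen). There III was no longer the densest chromosome (8.89 on I and 8.86 on IV), by differences within counting error. Density was 87.6 with regions under 200 bp apart joined, where I had 80.9, and 35.5 and 48.7 for the peaks of replicates 1 and 2. The ratio of centre to outer density was 1.38 for the central 50% and 1.49 in replicate 2. The highest over the lowest bin was 3.20, and 5.33 with bins of about 250 kb. The median gap was 4711.5 bp with joined regions and 10680 bp for the upper 50% of scores. The median score was 26.33 for regions found in both replicates, and the median width 315 bp with joined regions. Subsets by score or list hold fewer regions by construction. An assembly length of III was not used here, so densities with it were not computed. No paired analysis was possible because the input libraries have no list here and no result comes from a test. Binding below the lowest listed score cannot be seen.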

Other observations

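Across all 1357 neighbouring pairs on III, the score of a region said little about that of its neighbour (Spearman's rho 0.0291, a description). These pairs lay from 43 to 121207 bp apart, and close pairs were not examined on their own. Of the 600 regions found in neither replicate, 84 (14.0%) lay within 1 kb of a region found in both, and 380 (63.3%) lay more than 5 kb from any such region. A neighbour of any kind was within 1 kb for 194 of the 393 regions found in both (49.4%) and for 267 of the 600 found in neither (44.5%).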
